A study of Mus musculus with 4 samples.

Results

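In mouse prostate expression arrays, 10 genes of glucose breakdown and the response to low oxygen were followed: Slc2a1, Hk2, Pfkp, Aldoa, Pgk1, Eno1, Pkm2 (now Pkm), Ldha, Car9 and Vegfa. They were found by the gene name that the array files give each probe, and every probe with such a name was kept. This gave 18 probes for the 10 genes, out of 41174 probes and 27962 names that were not controls. All 18 passed the filter on dim probes, which kept 24908 probes. To pass, a probe had to exceed background clearly in both mice of at least 1 genotype, or in the pool on every array.

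Glycolysis splits glucose into pyruvate, and lactate dehydrogenase turns pyruvate into lactate, which lets the pathway run without oxygen. Under low oxygen the hypoxia-inducible factors escape degradation and switch on glucose transporters, glycolytic enzymes, carbonic anhydrase IX and the vessel growth factor VEGF-A. Prostate epithelium is known for the secretion of citrate, and loss of the retinoblastoma and p53 proteins in that epithelium is a known route to prostate tumours.

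The study set prostate RNA from 2 genotypes of mice, aged 60 days and untreated, against wild-type prostate. Mutant mice were Rb1R654W/F:Trp53F/F:PB-cre4, with 1 Rb1 allele coding for the R654W protein and the other conditional. Null mice were Rb1F/F:Trp53F/F:PB-Cre4, with both Rb1 alleles conditional. Both genotypes thus carried conditional Trp53 alleles and the Cre transgene PB-Cre4, driven by the probasin promoter in prostate epithelium, on a mixed C57BL/6:129/SVJae:FVB background. There were 2 mice of each genotype. Each of the 4 arrays held RNA of 1 mouse in the red Cy5 channel and RNA pooled from 3 wild-type mice in the green Cy3 channel, with no dye swap. All values below are log2 ratios of mouse over pool unless a sentence says otherwise, given in the order mutant mouse 1, mutant mouse 2, null mouse 1, null mouse 2. The pool counts as 1 control sample, so the spread between wild-type mice is not in any test against it. The tissue was whole prostate, in which fewer cells of a type and less RNA per cell cannot be told apart.

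In the red channel 22168 probes were clearly above background in null mouse 1 and 25034 to 26116 in the other 3 mice. Its median background-subtracted signal was 20.5 in null mouse 1 and 55.1 to 90.1 in the others, while the pool channel had 24.2 to 24.9. Null mouse 1 also had the widest log2 ratios, with an SD of 0.54 over the tested probes against 0.29 to 0.44. Heat shock genes had a median of 3.61 in null mouse 1 (6 of 7 listed genes past the filter) and of 0.02 to 0.31 in the other 3. Pbsn (probasin), Krt8, Krt18, Hoxb13 and Tmprss2, genes of prostate luminal epithelium, were well above background in every mouse. Rb1 was at -0.65, -0.24, 0.09 and -0.87, but the place of its probe relative to the deleted exon was not determined and Cre is active in only some of the cells, so this is no check of the labels. All arrays lay on 1 slide, and because each genotype filled adjoining places, place and genotype cannot be told apart.

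After loess the median of the 18 probes of the 10 genes lay close to the level of the wild-type pool, while single probes ran from -1.54 to 1.03. The median of the 18 probes was -0.03, 0.00, 0.07 and -0.03 in the 4 mice, beside medians of 0.03, 0.02, -0.01 and 0.01 over all probes past the filter. The glucose transporter Slc2a1 and 1 of 2 probes for the lactate dehydrogenase gene Ldha lay above the pool in all 4 mice, and 1 probe for the aldolase gene Aldoa lay below it in all 4 after loess normalisation. That makes 2 of 17 probes above the pool in all 4 mice and 1 of 17 below, over the probes with a value on every array. Over all tested probes the shares were 16.7% above and 14.9% below, or 31.5% on either side, so the count for these genes is no larger than the background. In limma, with Benjamini-Hochberg adjustment over all 24908 probes, 0 of the 18 probes differed from the pool over the 4 mice, where 0.012% of all probes did (3 probes, all lower). The smallest adjusted p was 0.203. At an unadjusted p under 0.05 there were 4 of 18 probes, against 17.6% of all probes.

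**Figure D1:**
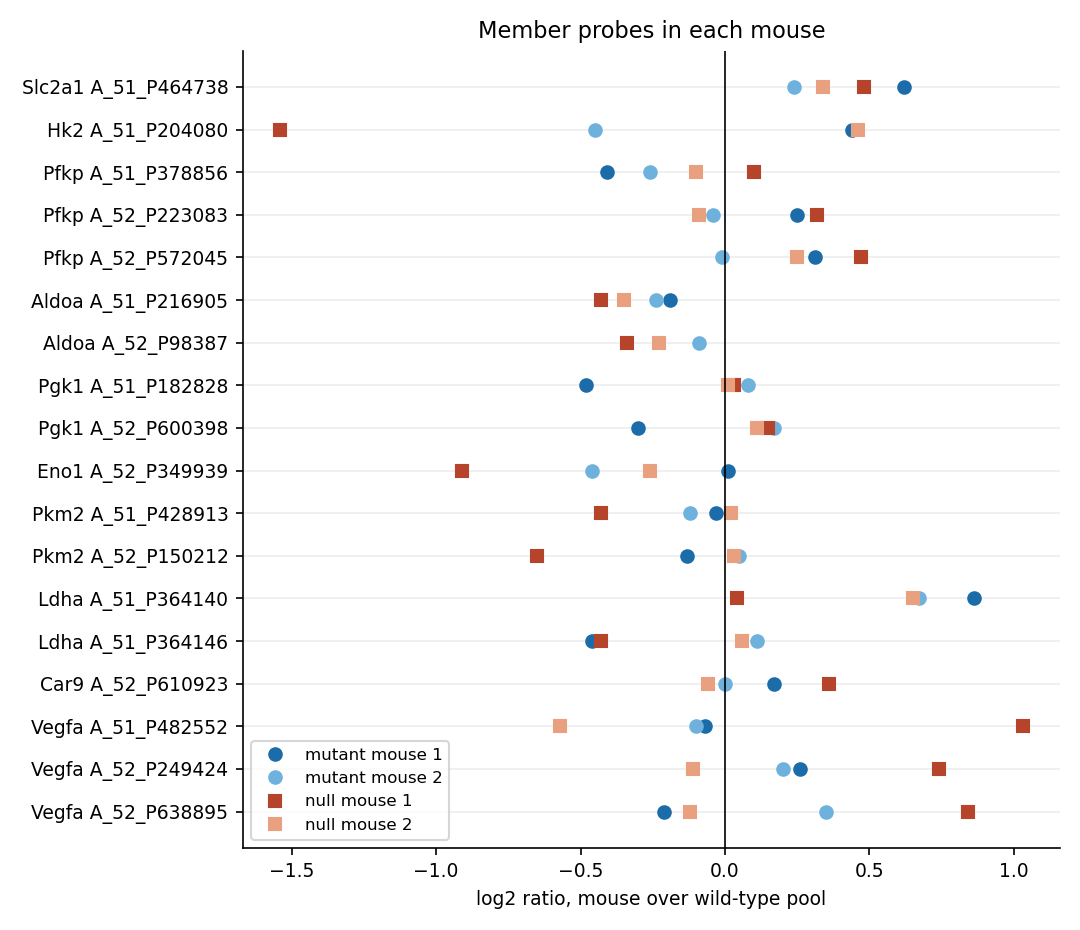
Log2 ratio of mouse over wild-type pool (x axis) for each of the 18 probes (y axis, gene and probe), with 1 point per mouse after loess normalisation. Circles are the 2 mutant mice and squares the 2 null mice. Null mouse 1 holds the lowest point, Hk2 at -1.54, and the highest, a Vegfa probe at 1.03.

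Glucose enters the cell and is trapped there by Slc2a1, which codes for the transporter GLUT1, and Hk2, which codes for hexokinase 2. Slc2a1 was at 0.62, 0.24, 0.48 and 0.34. The 4 mice all lay above the pool and the genotypes overlapped, with means of 0.43 ± 0.27 (SD, n = 2) in mutant and 0.41 ± 0.10 (SD, n = 2) in null mice. This is a ratio of 1.34 over the 4 mice, a log2 change of 0.42 (SE 0.11), with a limma adjusted p = 0.213. Of all tested probes, 93.4% had a lower mean over the 4 mice. Its probe lies at chr4:118513698-118513757 in build mm7, the build of the array files. The change stayed above 0 in all 11 alternative analyses, between 0.32 and 1.15. With all 4 mice above the pool, those that only left out a mouse could not turn its sign.

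Hk2 gave a different picture, being the most scattered of the 10 genes. It was at 0.44, -0.45, -1.54 and 0.46. The 2 null mice lay 2.00 log2 units apart, with null mouse 1 at a ratio of 0.343 to the pool and null mouse 2 at the top of all 4. Means were -0.01 ± 0.63 (SD, n = 2) in mutant and -0.54 ± 1.41 (SD, n = 2) in null mice. The fitted mutant minus null difference of 0.54 (SE 0.71, limma adjusted p = 0.985) turned to -0.47 without null mouse 1. Markers of fat cells had medians of 0.74, 1.47, -1.61 and 1.33 (4 of 5 listed markers past the filter). They were lowest in null mouse 1, as was Hk2, but highest in mutant mouse 2, where Hk2 was at -0.45. Their part in the Hk2 values was not tested.

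The next steps split the sugar. Pfkp, the platelet form of phosphofructokinase, commits the sugar to glycolysis and was read by 3 probes. The probe A_51_P378856 covers 2155 bases of chromosome 13 (chr13:6475782-6477936, mm7) with 60 bases of sequence, so it spans an intron. It is shown because it was the only probe of the 18 with mutant mice below null mice and no overlap:
Pfkp A_51_P378856: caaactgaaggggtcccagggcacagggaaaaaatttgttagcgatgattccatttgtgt
It was at -0.41, -0.26, 0.10 and -0.10. The other 2 Pfkp probes were at 0.25, -0.04, 0.32 and -0.09 (A_52_P223083) and at 0.31, -0.01, 0.47 and 0.25 (A_52_P572045), with the genotypes overlapping on both. In mutant mouse 1 these lay 0.66 and 0.72 above the first. Their fitted mutant minus null differences were -0.013 (SE 0.235) and -0.211 (SE 0.212), also below 0, so only the separation without overlap rests on 1 probe. The fitted mutant minus null difference of the first probe was -0.33 (SE 0.19, limma adjusted p = 0.985). It became 0.16 with median centring in place of loess, which is -0.22 relative to the shift of all tested probes there. A_52_P572045 shares a run of 29 bases with the opposite strand of a probe for Pitrm1, which was at 0.06, 0.17, 0.31 and 0.24.

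Aldoa codes for aldolase A, which cleaves fructose bisphosphate. Its probe A_51_P216905 was at -0.19, -0.24, -0.43 and -0.35. All 4 mice lay below the pool and the mutant mice above the null mice with no overlap, at means of -0.22 ± 0.04 (SD, n = 2) and -0.39 ± 0.06 (SD, n = 2). Over the 4 mice the loess value was -0.30 (SE 0.09, limma adjusted p = 0.227), a ratio of 0.811. With median centring it was 0.71, or 0.32 above the shift of all tested probes, so the direction depends on the normalisation. The second probe, A_52_P98387, was at -0.09, -0.34 and -0.23 in mutant mouse 2, null mouse 1 and null mouse 2. Its spot in mutant mouse 1 carried an outlier flag and was left out, so its fit rests on 3 mice. It shares 27 bases with the first probe and is no separate reading of the gene. Skeletal muscle, which expresses Aldoa strongly, had marker medians of -0.08, -0.10, -0.13 and -0.18 (11 of 12 listed markers past the filter), and its part in the Aldoa values was not tested.

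Pgk1, Eno1 and Pkm2 carry the later steps of the pathway. Pgk1 codes for phosphoglycerate kinase, which makes the first ATP of glycolysis. Its probe A_51_P182828 was at -0.48, 0.08, 0.03 and 0.01, so mutant mouse 1 lay apart from 3 mice at the level of the pool. This probe is spotted 10 times on each array, which gives the technical spread directly. In mutant mouse 1 the 7 spots without an outlier flag ran from -0.51 to -0.41 (SD 0.03). In the other mice the SD over 9 or 10 spots was 0.06 to 0.08, and the lowest spot was at -0.08. The spot spread covers printing and reading within 1 array only, not labelling, hybridisation or the mouse. The second probe, A_52_P600398, overlaps the first by 38 bases and was at -0.30, 0.17, 0.15 and 0.11. Both also share 47 to 51 bases with the opposite strand of a probe that the files name only TC1459893, at -0.31, -0.02, 0.41 and 0.16. The fitted mutant minus null differences were -0.22 (SE 0.25) and -0.19 (SE 0.23), both with limma adjusted p = 0.985. Without mutant mouse 1 the difference of the first probe was 0.06.

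**Figure D2:**
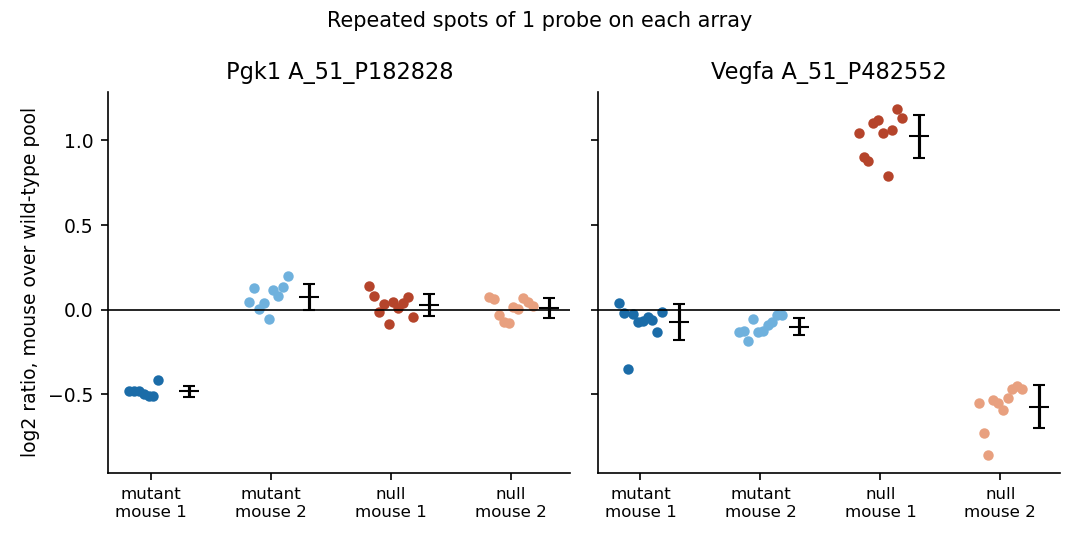
Log2 ratio of mouse over pool (y axis) of each spot of the Pgk1 and Vegfa probes that are printed 10 times per array, by mouse (x axis). Points are single spots without an outlier flag, and the bar beside them is the mean ± SD over spots. The 7 Pgk1 spots of mutant mouse 1 and the 10 Vegfa spots of null mouse 1 lie apart from the spots of the other mice.

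Eno1 codes for enolase 1, which makes phosphoenolpyruvate. Its single probe covers 226 bases of chromosome 4 (chr4:149233567-149233792, mm7) and so crosses an exon junction, which ties it to spliced RNA:
Eno1 A_52_P349939: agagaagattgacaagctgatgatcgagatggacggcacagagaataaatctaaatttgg
Eno1 was at 0.01, -0.46, -0.91 and -0.26. It lay below the pool in 3 mice and at its level in mutant mouse 1, and null mouse 1 was the lowest. Over the 4 mice the value was -0.41 (SE 0.15, a ratio of 0.755), with a limma adjusted p = 0.275. Of all tested probes, 4.65% had a lower mean. With median centring its mean was -0.03, or -0.41 relative to the shift of all tested probes.

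Pkm2 codes for pyruvate kinase of muscle, which makes pyruvate, and neither of its probes is stated to tell the M1 and M2 forms apart. A_51_P428913 was at -0.03, -0.12, -0.43 and 0.02. A_52_P150212 was at -0.13, 0.05, -0.65 and 0.03. Null mouse 1 was lowest on both probes, which share no more than 5 bases in a row, and the other 3 mice lay between -0.13 and 0.05. The null means of -0.20 ± 0.32 and -0.31 ± 0.49 (SD, n = 2) turned to 0.02 and 0.03 without null mouse 1.

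Ldha codes for the A chain of lactate dehydrogenase, and its 2 probes disagreed. The probe A_51_P364146 covers 930 bases of chromosome 7 (chr7:43030257-43031186, mm7) with 60 bases of sequence, while A_51_P364140 lies downstream of it at chr7:43031720-43031779 and has a stop codon in every forward reading frame. The junction-crossing sequence is shown because it ties that probe to spliced RNA:
Ldha A_51_P364146: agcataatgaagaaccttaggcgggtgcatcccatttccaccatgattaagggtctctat
The downstream probe was at 0.86, 0.67, 0.04 and 0.65. All 4 mice lay above the pool, at ratios of 1.81, 1.59, 1.03 and 1.56. The lower mutant mouse (0.67) stood just above the higher null mouse (0.65). The junction-crossing probe was at -0.46, 0.11, -0.43 and 0.06, with mutant mouse 1 and null mouse 1 below the pool and the other 2 mice near it. It lay below the downstream probe by 1.32, 0.56, 0.47 and 0.58, so mutant mouse 1, the highest on one probe, was the lowest on the other. Both probes are bright, with mean log2 intensities of 14.9 and 13.4.

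For the downstream Ldha probe the value over the 4 mice was 0.55 (SE 0.13), a ratio of 1.47, with a limma adjusted p = 0.203. Of all tested probes, 96.8% had a lower mean. The value was positive in all 11 alternative analyses (0.40 to 1.53). With all 4 mice above the pool on this probe, those that only left out a mouse could not turn its sign. For the other probe the same value was -0.18 (SE 0.15, limma adjusted p = 0.541), and it was 0.68 with median centring. A higher level of Ldha RNA than in the pool therefore rests on 1 of the 2 probes.

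Car9 and Vegfa are the members known mainly as targets of the hypoxia-inducible factors. Car9, which codes for a carbonic anhydrase at the cell surface, was at 0.17, 0.00, 0.36 and -0.06. It was the dimmest of the 18 probes, with a mean log2 intensity of 6.64, and the pool channel was well above background on 3 of 4 arrays. The spread over the 4 mice, an SD of 0.19, was larger than their mean of 0.12.

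Vegfa codes for the growth factor VEGF-A, which drives the growth of blood vessels, and was read by 3 probes. A_52_P249424 was at 0.26, 0.20, 0.74 and -0.11. A_51_P482552 was at -0.07, -0.10, 1.03 and -0.57, and A_52_P638895 at -0.21, 0.35, 0.84 and -0.12. Null mouse 1 was the highest of the 4 mice on all 3 probes, at 1.67 to 2.04 times the pool, and null mouse 2 lay below the pool on all 3. The 10 spots of A_51_P482552 ran from 0.79 to 1.18 in null mouse 1 and from -0.86 to -0.45 in null mouse 2 (SD 0.13 within each array). The null means of 0.31 ± 0.60, 0.23 ± 1.13 and 0.36 ± 0.68 (SD, n = 2) had limma adjusted p of 0.62 to 0.835, and without null mouse 1 they turned to -0.12, -0.57 and -0.12. The high Vegfa values occur in the mouse with the heat shock median of 3.61 and the dimmest red channel, and the part of either was not tested. Endothelial markers had medians of -0.08, 0.07, -0.10 and 0.06 (8 of 8 listed markers past the filter).

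The factors of the hypoxia response bind DNA at a short core, ACGTG or GCGTG. This core was searched on both strands of RefSeq promoters (assembly GRCm38.p6), taken as 250 bases before to 50 after the start of transcription, of which 17 belonged to the 10 genes. ACGTG occurred in 9 of the 17 promoters, for 8 of the 10 genes (not Eno1 or Pfkp), against 19.6% of 32851 promoters. With GCGTG included it was 14 of 17 promoters, against 43.8% of all promoters, and each of the 10 genes had such a promoter. The background shares are per promoter, and a gene with several promoters counts through any of them, so the gene counts have no background here. Some of the promoters overlap, and the same Aldoa site (chr7:126799361-126799395) is counted in more than 1. The genes were picked for glycolysis and the hypoxia response, so no enrichment is drawn from these shares. Windows of 35 bases are shown for Slc2a1, Ldha and Pgk1, each written along its gene. Capitals mark the core at the stated distance (ACGTG, or CACGT where it is on the opposite strand), and other copies in a window are left in lower case.
Slc2a1, 36 bases before the start, chr4:119108694-119108728: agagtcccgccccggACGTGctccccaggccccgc
Ldha, 144 bases before the start, chr7:46845645-46845679: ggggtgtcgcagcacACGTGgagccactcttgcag
Ldha, 34 bases before the start, chr7:46845755-46845789: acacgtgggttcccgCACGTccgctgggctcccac
Pgk1, 150 bases before the start, chrX:106186935-106186969: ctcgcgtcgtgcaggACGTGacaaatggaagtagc
Pgk1, 131 bases before the start, chrX:106186954-106186988: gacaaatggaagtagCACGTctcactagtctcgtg
Both Ldha windows hold CACGTG, the palindrome also known as an E-box, which in the first overlaps the marked core and in the second lies upstream of it. CACGTG occurred in 7.15% of promoters and in 1 of the 17. A match of 5 letters is a description of the sequence and does not show that a factor binds there.

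The comparison of the 2 genotypes asks how a partly functional retinoblastoma protein differs from its loss. None of the 10 genes was told apart between mutant and null mice. In limma 0 of 18 probes passed an adjusted p of 0.05, as did 0 of all 24908 probes (0%), and the smallest adjusted p among the 18 was 0.985. At an unadjusted p under 0.05 there were 0 of 18, against 2.18% of all probes. The differences ran from -0.33 for a Pfkp probe to 0.54 for Hk2, 9 of them above and 9 below 0, with a median of 0.00 beside 0.02 over all probes. Mutant and null values stood fully apart on 4 of the 18 probes, against 30.4% of all probes. The mutant mice were higher on 3 of these, for Ldha (A_51_P364140) and both Aldoa probes (16.8% of all probes), and lower on 1, for Pfkp (13.7%). An exact permutation of 2 against 2 mice cannot go below p = 0.333.

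The precision of this comparison differed by gene. The median SE of the 18 differences was 0.24 on the log2 scale. For Slc2a1 the difference was 0.02, with a 95% confidence interval from -0.53 to 0.57. For Hk2 the interval ran from -1.29 to 2.36, and for the Vegfa probe A_51_P482552 from -1.68 to 1.05. Without null mouse 1 the differences of the 3 Vegfa probes turned from below to above 0, at 0.34, 0.49 and 0.19. Missing the threshold does not show that the genotypes are alike.

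**Figure D3:**
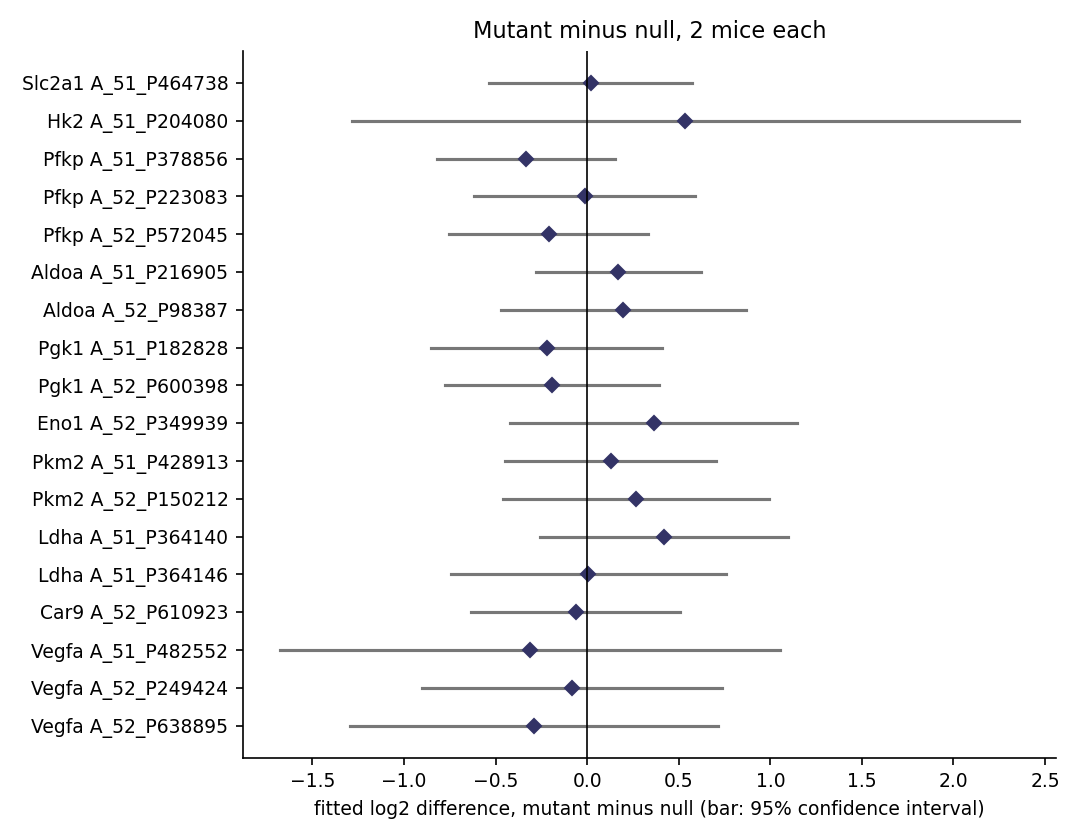
Fitted log2 difference of mutant minus null mice (x axis) for the 18 probes (y axis), with bars for the 95% confidence interval from limma, 2 mice per genotype. Every interval includes 0, and those of Hk2 (-1.29 to 2.36) and of a Vegfa probe (-1.68 to 1.05) are the widest.

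Each genotype was also set against the pool, and the tests share the pool. In the mutant mice 0 of 18 probes passed the threshold in limma, as did 0 of all 24908 probes. At an unadjusted p under 0.05 there were 2 of 18, Ldha A_51_P364140 at 0.76 (SE 0.19, limma adjusted p = 0.453) and Slc2a1 at 0.43 (SE 0.15, adjusted p = 0.454), against 10.6% of all probes. In the null mice 0 of 18 passed, as did 0 of all probes. There 3 of 18 had an unadjusted p under 0.05, against 10.2% of all probes. These were Slc2a1 at 0.41 (SE 0.15, limma adjusted p = 0.481), Eno1 at -0.59 (SE 0.22, adjusted p = 0.481) and Aldoa A_51_P216905 at -0.39 (SE 0.12, adjusted p = 0.473). The median of the 18 probes was -0.05 in mutant and 0.07 in null mice.

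Single mice departed from the others about as often for these genes as for other probes. Null mouse 1 lay outside the range of the other 3 mice on 13 of 17 probes, the highest on 7 and the lowest on 6, against 68.9% of all probes. The counts were 9 of 17 for mutant mouse 1 (52.6% of all probes), 6 of 17 for mutant mouse 2 (37.9%) and 6 of 17 for null mouse 2 (40.5%). The median absolute log2 ratio of the 17 probes was 0.43 in null mouse 1 and 0.12 to 0.26 in the other mice, beside 0.26 and 0.15 to 0.22 over all tested probes.

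The sign of several values against the pool turned with the normalisation. With median centring in place of loess, all tested probes had a median of 0.37 over the 4 mice, and 4264 probes (17.1%) passed the threshold in limma, 4197 higher and 67 lower, where loess gave 3, all lower. Of the 18 probes, 6 passed and all were higher: Ldha A_51_P364140 (1.53), Slc2a1 (1.15), both Pgk1 probes (0.81 and 0.89) and the Vegfa probes A_52_P249424 (0.65) and A_52_P638895 (0.75). Relative to the shift of all probes, the Ldha probe stood at 1.15 and Slc2a1 at 0.77, Eno1 stayed lower at -0.41, and Aldoa turned from lower to higher. Slc2a1 and the downstream Ldha probe were thus higher, and Eno1 lower, than the bulk of probes under both, and for Aldoa, Pkm2, Car9, the second Ldha probe, the first Pgk1 probe and the Pfkp probe A_52_P223083 the direction depends on the choice. Hk2 and the Pfkp probe A_52_P572045 came to lie at about the shift of all probes (0.00 and -0.01 relative to it). The move from loess to median centring went with brightness. Bright probes rose, as Ldha A_51_P364140 (mean log2 intensity 14.9, 0.55 to 1.15) and Aldoa A_51_P216905 (15.2, -0.30 to 0.32). Dim ones fell, as Car9 (6.64, 0.12 to -0.34) and Pfkp A_52_P223083 (6.68, 0.11 to -0.30). Slc2a1 (11.8) rose from 0.42 to 0.77, and Eno1 (8.04) hardly moved. Loess adjusts for brightness and a single shift does not, so median-centred values are not relative to equally bright probes.

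**Figure D4:**
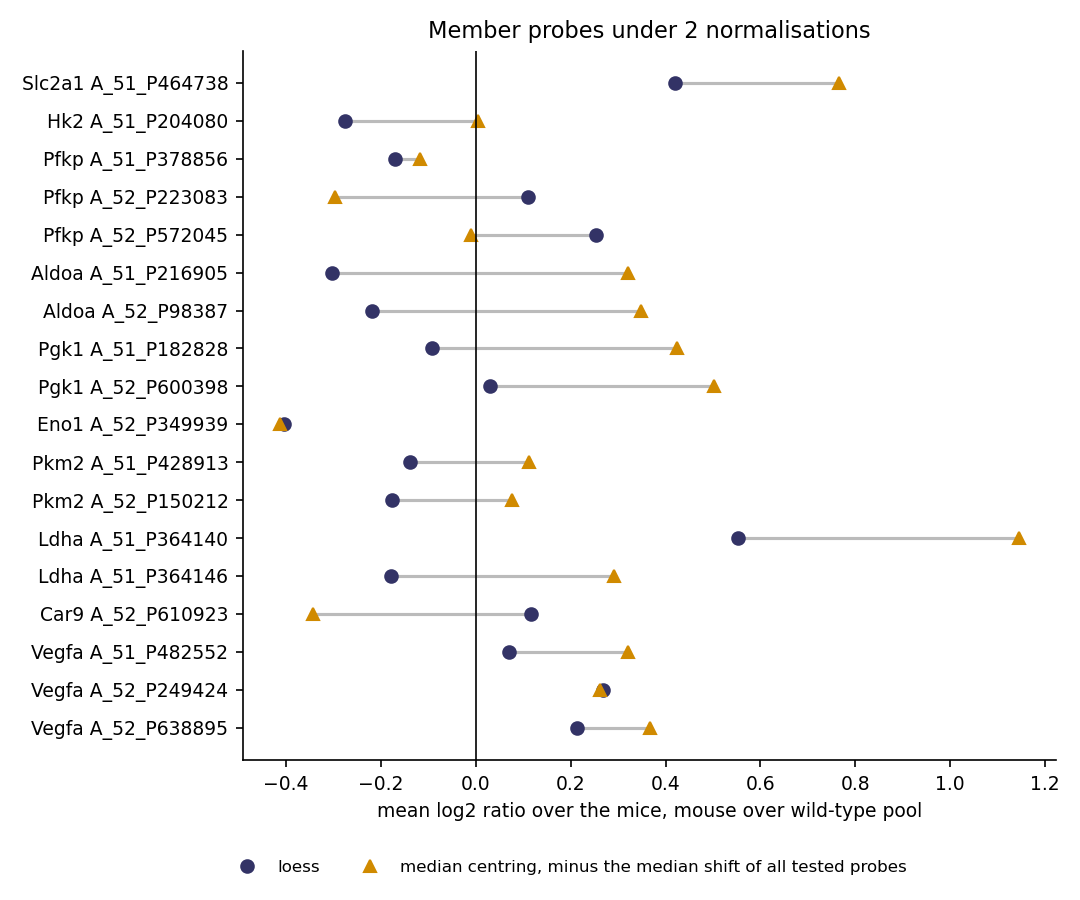
Mean log2 ratio over the mice, mouse over wild-type pool (x axis), of the 18 probes (y axis) after loess (circles) and after median centring less the median of all tested probes on each array (triangles). Ldha A_51_P364140 moves from 0.55 to 1.15 and Slc2a1 from 0.42 to 0.77, Eno1 stays at about -0.41, and Aldoa A_51_P216905 moves from -0.30 to 0.32.

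The other genes of the pathway gave no calls either. In lists of related genes, each read by its brightest probe past the filter, limma called 0 genes in any comparison after loess with all 4 mice in the fit. With median centring, where 17.1% of all probes were called over the 4 mice, the calls were 0 of 12 other glycolytic genes, 4 of 13 genes of transport and flux control, 0 of 9 hypoxia factors and hydroxylases and 7 of 21 hypoxia targets. They were 2 of 8 genes of the VEGF family, 1 of 9 of the pentose phosphate route and gluconeogenesis, 3 of 10 of pyruvate and citrate use and 1 of 4 p53-linked genes. Of 12 other glycolytic genes past the filter (16 listed), 6 lay below the pool in all 4 mice and 1 above. Over all tested probes these shares were 14.9% and 16.7%. The 12 genes had medians of -0.21, -0.21, -0.33 and -0.03. With median centring the list's median over the mice moved from -0.21 to 0.38, which is 0.01 above the shift of all probes, so the lower level is not kept under that choice. Pfkl, the liver form of phosphofructokinase, was at -0.50, -0.58, -0.57 and -0.10, and the muscle form Pfkm at -0.34, -0.21, -0.37 and -0.10. The neuronal enolase Eno2 was at -0.83, -0.28, -0.63 and -0.27 by its brighter probe and at -0.73, -0.16, -0.78 and -0.42 by the other. The brighter probe was lower than the shift of all probes by 0.47 with median centring too. Gpi1 (glucose phosphate isomerase) was at -0.14, -0.38, -0.29 and -0.02 by its brighter probe, with a dim probe at 0.00, 0.13, 0.10 and -0.09, and Pgam1 (phosphoglycerate mutase) at -0.50, -0.03, -0.29 and -0.04, and with median centring they stood 0.37 and 0.33 above that shift. Hk1, the main hexokinase of most tissues, was at -0.18, 0.03, -0.70 and 0.06 by its brightest probe (its 3 other probes were at -0.57 to -0.36 in mutant mouse 1 and -0.40 to -0.23 in null mouse 1) and Tpi1 (triose phosphate isomerase) at 0.02, -0.28, -0.55 and -0.14. Aldoc, the brain form of aldolase, was at 0.09, -0.19, -0.76 and 0.09. Ldhb, the other lactate dehydrogenase chain, was at -0.24, -0.20, -0.04 and 0.10. Gapdh had no probe past the filter.

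Among 13 genes of glucose and lactate transport and of flux control, 1 lay above and 2 below the pool in all 4 mice. Over all tested probes these shares were 16.7% and 14.9%. The furthest of the 13 genes was Pfkfb3, which makes the activator of phosphofructokinase, at -3.08, -0.31, -2.86 and -2.51. A second, dimmer Pfkfb3 probe was at -1.05, -0.39, -1.13 and -0.98, with mutant mouse 2 again nearest the pool. The brighter probe had, over the 4 mice, -2.19 (SE 0.45) and a limma adjusted p of 0.196. Secretory genes of the seminal vesicle, a gland that lies against the prostate, had medians of -4.08, -0.61, -4.64 and -3.59 (4 of 6 listed genes past the filter), with mutant mouse 2 nearest the pool there too, and their part in the Pfkfb3 value was not tested. Slc16a1, which codes for the lactate transporter MCT1, was at -0.47, -0.24, 1.48 and -0.06, high in null mouse 1 alone, as on 1 of its 2 other probes (1.14, against -0.01). Slc16a3 (the transporter MCT4) was at 0.26, -0.09, 0.09 and 0.10 and Slc2a3 (GLUT3) at -0.14, 0.28, -0.07 and 0.11. The 2 probes of Pdk1, the kinase that keeps pyruvate out of the mitochondrion, disagreed, with 0.67, -0.16, -0.63 and 0.49 on the brighter and -0.39, -0.26, -0.45 and 0.02 on the other.

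The hypoxia factors themselves lay near the pool. Hif1a was at -0.34, -0.12, 0.15 and -0.11. Epas1 was at 0.24, -0.02, 0.20 and -0.25 by its brighter probe and at -0.22, 0.09, 0.13 and 0.09 by the other. Their partner Arnt was at 0.64, -0.18, -0.07 and 0.10 by its brightest probe, while its 3 dimmer probes were at -0.17 to 0.06 in mutant mouse 1. Vhl, which marks the factors for degradation, was at -0.32, -0.36, -0.13 and -0.13, below the pool in all 4 mice after loess but at 0.26 with median centring, which is -0.11 relative to the shift of all probes. Of the oxygen-sensing hydroxylases, Egln1 was at -0.44, -0.58, -0.94 and 0.03 by its brighter probe and at -0.67, -0.21, -0.65 and -0.13 by the other. Egln2 was at 0.05, -0.36, -0.52 and -0.26 and Egln3 at 0.03, -0.29, -0.05 and 0.08. The 9 of 10 listed genes past the filter had medians of -0.08, -0.29, -0.07 and -0.11.

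Known targets of these factors lay on both sides of the pool. Of 21 listed targets, 3 of which (Egln3, Pdk1 and Slc2a3) are also in the lists above, 5 lay above the pool in all 4 mice and 1 below. Over all tested probes these shares were 16.7% and 14.9%. The targets had medians of 0.02, 0.10, 0.16 and 0.20. With median centring their median over the mice was 0.64, or 0.28 above the shift of all probes. P4ha1, a collagen prolyl hydroxylase, was at 0.46, 0.41, 1.64 and 0.37 by its brighter probe and at -0.23, 0.23, 1.19 and 0.38 by the other, highest in null mouse 1 on both. Adm, which codes for adrenomedullin, was at 0.27, 0.22, 0.20 and 0.19, the least scattered of the named targets. Bnip3, a mitophagy receptor, was at -1.07, -0.08, -0.71 and 0.10. Ndrg1 was at -0.53, -0.08, 0.39 and 0.18, and Ddit4, an inhibitor of mTORC1 signalling, at 0.45, -0.03, 0.16 and -0.47. Over the 4 mice the value was 0.72 (SE 0.22) for P4ha1, 0.22 (SE 0.09) for Adm and -0.44 (SE 0.22) for Bnip3, with limma adjusted p of 0.233, 0.284 and 0.36. With median centring P4ha1 and Adm passed the threshold over the 4 mice. Ndrg1 and Ddit4, at -0.01 and 0.03 over the 4 mice after loess, passed it there too, and Bnip3 did not.

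Of the VEGF family, Vegfb was at 0.71, 0.22, 0.53 and 0.24, above the pool in all 4 mice by its brighter probe, while a second probe was at 0.40, 0.14, -0.25 and 0.04. Vegfc, the lymphatic growth factor, was at 0.02, -0.17, 0.53 and 0.15. The receptor genes Flt1 and Kdr were at -0.26, -0.67, 0.56 and -0.38 and at 0.30, 0.40, -0.20 and 0.16. All 3 Flt1 probes were highest in null mouse 1 (0.37 to 0.84), as were the 3 Vegfa probes. The 8 of 9 listed genes of the family past the filter had medians of 0.12, 0.04, 0.33 and 0.25. Tigar, a p53 target that lowers glycolytic flux, was at -0.02, 0.20, 0.20 and 0.13 by its brighter probe and at -0.30, 0.19, -0.13 and 0.04 by the other, and Sco2 had no probe past the filter. The 4 of 5 listed p53-linked metabolic genes past it had medians of -0.15, 0.00, 0.46 and -0.12.

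Neighbouring routes of carbon were also read. The 9 of 11 listed genes of the pentose phosphate route and gluconeogenesis had medians of 0.03, -0.18, -0.23 and -0.05. The 10 genes of pyruvate and citrate use had medians of -0.05, 0.05, -0.07 and -0.05. For 5 of them the mutant mice lay above the null mice with no overlap, against 16.8% of all probes. For 1, Slc39a1, they lay below with no overlap, against 13.7%. The median mutant minus null difference of the 10 genes was 0.19, beside 0.02 over all probes, and limma called 0 of the 10. With median centring the same difference was 0.83, or 0.44 above the shift of all probes.

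**Figure D5:**
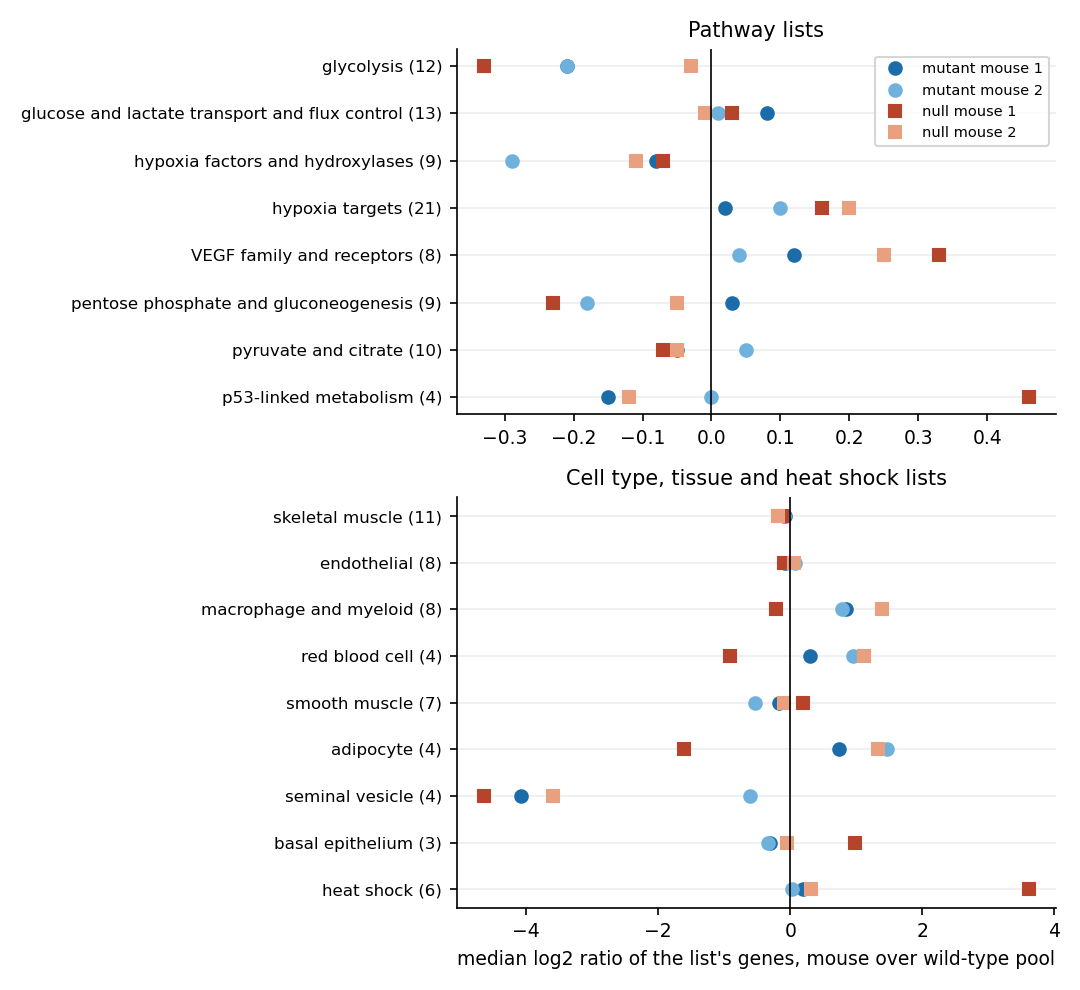
Median log2 ratio of mouse over pool (x axis) of each list of genes (y axis, with the number of genes past the filter), with 1 point per mouse after loess. The upper panel holds pathway lists and the lower panel lists of cell types, tissues and heat shock, on a wider scale. The pathway medians lie between -0.33 and 0.46, and those of the lower panel reach 3.61 for heat shock in null mouse 1 and -4.64 for the seminal vesicle.

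Lists of markers of other cells were read in the same arrays. Macrophage markers had medians of 0.85, 0.78, -0.21 and 1.39 (8 of 8 listed), red blood cell genes of 0.30, 0.95, -0.92 and 1.11 (4 of 5), smooth muscle of -0.17, -0.54, 0.20 and -0.10 (7 of 7) and basal epithelium of -0.31, -0.33, 0.98 and -0.05 (3 of 3). The part of these differences in the values of the 10 genes was not tested.

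The authors' deposited table gives mutant against null as linear ratios of 1.13 or more and holds 31 rows for 9 of the 10 genes, with Slc2a1 not among the rows used here. In the authors' deposited table the mutant mean was the higher for Eno1 (1.38), Ldha (1.26 and 1.14), Hk2 (1.22), Pkm2 (1.16) and Aldoa (1.15). In the authors' deposited table it was the lower in all 12 Vegfa rows (1.19 to 1.56), all 9 Pgk1 rows (1.13 to 1.24), all 3 Pfkp rows (1.15 to 1.59) and the Car9 row (1.15). These rows come from the same 4 arrays and are no separate evidence. Of the Vegfa rows, 11 were assigned to the probe A_51_P482552 by their values, although that probe has 10 spots. The match of rows to probes is therefore uncertain, and rows are not separate readings of a gene.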

How the data were processed

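RNA of 4 mouse prostates was set against 1 wild-type pool on 2-colour Agilent arrays. The deposited intensity values are mean spot and median local background signals per channel from Agilent Feature Extraction (version 9.5.1.1 per the file headers, 8.5 per the submitters' processing notes). The deposited log10 ratios of red over green processed signals, also from Feature Extraction per the file headers, entered only as an alternative through the processed signals. The authors' deposited table gives linear ratios of group means, with scaling and software not given in the sources used here.

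From the intensities, limma 3.58.1 in R 4.3.3 applied normexp background correction (offset 50) and loess within arrays with control spots at weight 0. Outlier-flagged spots were left out and repeat spots averaged, and log2 ratios were fitted for 24908 probes past the filter (lmFit, eBayes, prior degrees of freedom 3.04, Benjamini-Hochberg adjusted p under 0.05). The fit held both genotype means, which gave mutant minus null, each genotype against the pool and all 4 mice against it. With 2 mice per genotype the number of arrays limits the precision, and p-values measure the spread between these mice. Groups came from the labels, and replicate numbers did not pair the mice (correlation of deviations 0.004). Scripts were tested on simulated data.

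Every probe of the 10 genes was named. Other genes were named by role, in their brightest probe past the filter, with any list gene passing the threshold, of which there were 0. Other probes of these genes past the filter are given in full, by range or in the mouse where they bear on its value. Members and lists were chosen with earlier results of these data known. Names were updated through RefSeq for 22951 probes by accession, 6659 by current and 3109 by older symbol, and 8455 kept the file's name. Probe positions are those of the files (mm7), with exon or UTR place not annotated here, and promoters are RefSeq's on GRCm38.p6. Alternatives changed the normalisation, background correction, scaling, filter, rows, array weights, replicate block and the mice included. The luminal marker list and most probe sequences are not reported here.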

Additional observations from a re-analysis of the deposited data

How the results depend on the processing

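Across 7 other ways of processing, leaving out each mouse in turn and a replicate block, the 10 genes gained calls in limma only with median centring, where 6 of the 18 probes and 4264 of all probes passed over the 4 mice. A reversal means that the sign of a fitted value turned in any comparison, counted only for values at least as large as their SE. Where all probes shift alike, the value relative to their median is given too. Median centring moved the median of the 18 probes to 0.522 for mutant minus null, 0.899 for mutant, 0.382 for null and 0.662 for all 4 mice against the pool, beside 0.384, 0.597, 0.138 and 0.368 over all probes. It reversed Pfkp A_51_P378856 to 0.16 for mutant minus null (-0.22 relative, so still below the bulk). Against the pool in mutant mice it reversed that Pfkp probe (0.35) and Eno1 (0.391), both still below the bulk (-0.25 and -0.21 relative), and Pgk1 A_51_P182828 (1.007) and Aldoa A_51_P216905 (1.101), both above it (0.41 and 0.50). In null mice it reversed both Aldoa probes (0.312 and 0.442, or 0.17 and 0.30 relative) and both Pkm2 probes (0.128 and 0.017, or -0.01 and -0.12 relative). Over the 4 mice it reversed Ldha A_51_P364146 (0.677), Aldoa (0.706 and 0.765) and Pkm2 (0.498 and 0.464), all above the bulk, and Pfkp A_51_P378856 (0.27), still below it (-0.10 relative). The processed signals gave medians of -0.054, 0.099, 0.199 and 0.104 in the same order and 5 calls over the 4 mice, and reversed Ldha A_51_P364146 over the 4 mice (0.052, or -0.10 relative, still below the bulk). Scaling between arrays gave medians of -0.189 for mutant minus null, 0.127 for null and 0.019 for all 4 mice, with 0 calls over the 4 mice, as without the filter (0). With 1 row a gene the medians were 0.108 for mutant minus null, 0.008 for null and -0.131 for all 4 mice, and this fit and array weights each gave 2 calls in mutant mice against the pool. The cause of the other shifts was not tested. No background correction kept the direction of all 72 values of the 18 probes, and the replicate block that of all 18 differences, with 0 calls; the replicate numbers share only a number.

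Leaving out 1 mouse, with a lone mouse assumed to vary like the other group, gave 0 to 9 calls for mutant minus null (9 without null mouse 2), 0 to 2 for mutant mice (2 without either null mouse), 0 to 377 for null mice (377 without null mouse 2) and 0 to 325 for all 4 mice (36 without null mouse 1, 325 without null mouse 2), with 0 of the 18 probes among them. Medians of the 18 ran from -0.131 to 0.062, -0.055 to -0.004, -0.026 to 0.116 and -0.052 to 0.042. In mutant mice Pgk1 A_51_P182828 ran from -0.482 to 0.076 and Eno1 from -0.459 to 0.012. In null mice Hk2 ran from -1.542 to 0.457, the Pkm2 probes from -0.427 to 0.021 and from -0.655 to 0.033, Vegfa A_52_P249424 from -0.115 to 0.736 and A_52_P638895 from -0.124 to 0.84. Over the 4 mice A_52_P638895 ran from -0.027 to 0.455. Signal over background limits Car9, the dimmest probe.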
